A study of Mus musculus with 4 samples.

Results

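The imprinted *Dlk1*-*Dio3* domain lies on distal mouse chromosome 12, and 8 genes in or beside it were followed here, out of 55602 in the deposited table. They are *Begain*, *Rtl1*, *Dio3*, *Wars*, *Wdr25*, *Yy1*, *Slc25a29* and *Ppp2r5c*, which are the listed genes of this stretch other than *Dlk1*, *Meg3*, *Rian* and *Mirg*. The cells were JB1 neural precursor cells (NPCs), made from a hybrid mouse embryonic stem cell line with a JF1 mother and a C57BL/6 father. The 2 wild-type (WT) cultures were compared with 2 cultures of the *Zfp57*-/- line, which was derived from JB1 and is a single line, so that the genotype and the line cannot be told apart. All 4 cultures received 1 µM cyclopamine, an inhibitor of sonic hedgehog signalling, from day 2 to day 10 of cortical differentiation and were collected at day 12. Libraries were made from total RNA without ribosomal RNA and kept the strand, so that genes on opposite strands were counted apart.

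At imprinted genes, expression depends on the parent from which the allele was inherited. In the *Dlk1*-*Dio3* domain, the protein-coding genes *Dlk1*, *Rtl1* and *Dio3* are known as paternally expressed, and the non-coding RNAs *Meg3*, *Rian* and *Mirg* as maternally expressed. Methylation of the intergenic control region on the paternal chromosome keeps the non-coding RNAs silent there, and the zinc finger protein ZFP57 protects such methylation after fertilization. The comparison asks how far from the control region the level and the allelic origin of RNA differed between the genotypes.

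In file coordinates (GRCm38, chromosome 12), *Yy1* occupies chr12:108792973-108820148 on the plus strand, *Slc25a29* chr12:108825873-108835883 on the minus strand and *Wars* chr12:108860030-108894174 on the minus strand. *Wdr25* (chr12:108893631-109028452, plus strand) shares 544 bases with *Wars*, head to head. *Begain* (chr12:109032187-109068217, minus strand) ends the upstream group, with 385 kb between it and *Dlk1*. *Rtl1* (chr12:109589193-109600330, minus strand) lies between *Meg3* and *Rian*, which are transcribed from the other strand. *Dio3* (chr12:110279068-110281097, plus strand) begins 530 kb after the end of *Mirg*, and *Ppp2r5c* (chr12:110447120-110583062, plus strand) 166 kb after *Dio3*.

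The bulk counts per library were 7663520 to 10337082, and 36.1% to 37.0% as many counts could be assigned to a parental allele. *Zfp57* itself was counted at 48.5 and 23.8 CPM (counts scaled to a common library total) in the WT and at 17.0 and 14.7 CPM in the *Zfp57*-/- libraries (log2 fold change -1.19 ± 0.32, edgeR adjusted p = 0.0225). All 158 allelic *Zfp57* reads of the mutant were paternal, against 130 of 365 in WT cells. Which part of the gene is deleted is not given in the sources used here. The cells are labelled neural precursors, and the summed level of 9 neural markers was 1836 and 2138 CPM in the WT but 371 and 358 CPM in the *Zfp57*-/- libraries, none of the markers being at 0 in a genotype. The summed level of 7 pluripotency markers was 4.21 and 7.92 CPM in the WT and 1240 and 1085 CPM in the *Zfp57*-/- libraries. All 7 of these markers were higher and 7 of the 9 neural markers lower in the mutant by the test used below. In bulk RNA, fewer cells of a type and less RNA per cell cannot be told apart. WT replicate 1 differed from the other libraries, with 1812 CPM of *Actb* against 3596 to 4013 CPM, and values that leaving out a WT library moved far are also given without it.

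Among the outer genes, *Begain* fell and the others did not pass the test. Of the 7 genes with more than 8 counts over the 4 libraries, 1 was called by edgeR's quasi-likelihood test at a Benjamini-Hochberg adjusted p of 0.05, against 27.6% of all 19985 genes tested and 14.6% for the lower direction alone. The call of *Begain* stayed and a second gene was called without WT replicate 1 (*Dio3*) or without WT replicate 2 (*Wars*). The median log2 fold change was -0.17 over the 7 genes and -0.01 over all genes tested. Levels are given as CPM after TMM scaling, and log2 fold changes as *Zfp57*-/- over WT.

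**Figure D1:**
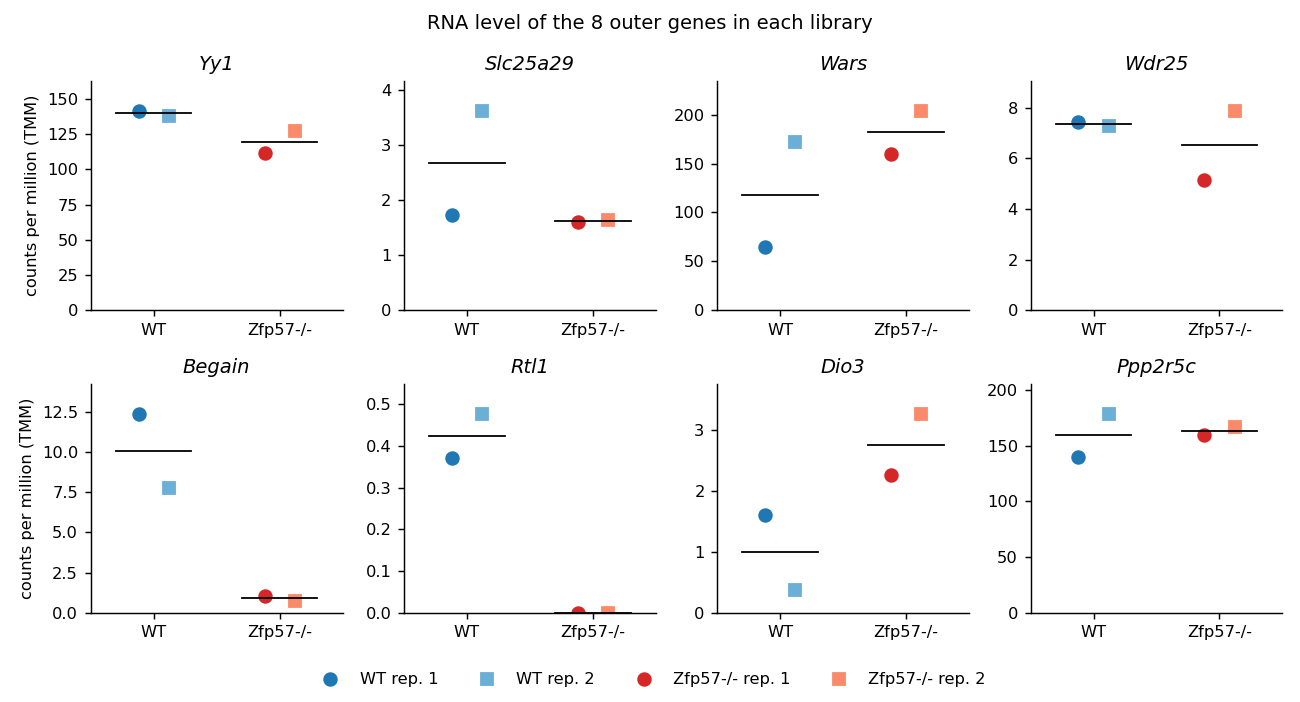
RNA level of the 8 outer genes in each library, as TMM-scaled CPM on linear axes from 0 with a scale of its own for each gene. Points are libraries and lines are means of 2. The *Zfp57*-/- points of *Begain*, *Rtl1*, *Yy1* and *Slc25a29* sit below both WT points, and those of *Dio3* sit above them. Of these genes only *Begain* was called, and *Rtl1* was not tested. How many of all genes separate in this way with 2 libraries per genotype was not counted.

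*Begain* encodes a guanylate kinase-associated protein of the brain that is found at postsynaptic sites. It was counted 100 and 81 times in the WT and 10 and 7 times in the *Zfp57*-/- libraries, which gave 12.4 and 7.73 against 1.07 and 0.716 CPM. Both mutant libraries were far below both WT libraries. The log2 fold change was -3.47 ± 0.49 (SE, adjusted p = 0.000709 in edgeR), a level 11.1 times lower. Without any 1 library it lay between -3.78 and -3.13 and remained called in all 4 fits. The fall stood beside the lower summed neural markers given above, and the part of cell composition in it was not tested.

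The *Begain* reads that could be given to an allele were fewer in the mutant for both alleles. Maternal and paternal reads were 15 and 13 in WT replicate 1, 8 and 15 in WT replicate 2, 0 and 3 in *Zfp57*-/- replicate 1, and 1 and 1 in *Zfp57*-/- replicate 2. *Begain* thus had reads from both parents in WT cells, with 23 of 51 reads maternal, and 5 allelic reads in all in the mutant. Between the genotypes, the maternal reads fell by 4.30 ± 1.03 on the log2 scale (edgeR adjusted p = 0.00956) and the paternal reads by 2.78 ± 0.80 (edgeR adjusted p = 0.0210), where 18.3% and 15.9% of the 10975 genes tested were called lower. *Begain* passed the filter on allelic counts, which is set on the WT libraries alone, through the genotype in which it is high, so these tests are no support beyond the bulk result. Both calls were lost in the fits without WT replicate 1 and without either *Zfp57*-/- library, where adjusted p ranged from 0.0559 to 0.148, and the direction stayed.

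The RefSeq promoter table (GRCm38.p6) holds windows of 250 bases before to 50 bases after each start. The window of the most upstream *Begain* start is printed because *Begain* was the only outer gene called in the bulk test. It is chr12:109068193-109068492 on the minus strand, and the capitals mark the ZFP57 hexamer, searched as TGCCGC and GGCCGC on both strands with overlaps counted.

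Begain promoter: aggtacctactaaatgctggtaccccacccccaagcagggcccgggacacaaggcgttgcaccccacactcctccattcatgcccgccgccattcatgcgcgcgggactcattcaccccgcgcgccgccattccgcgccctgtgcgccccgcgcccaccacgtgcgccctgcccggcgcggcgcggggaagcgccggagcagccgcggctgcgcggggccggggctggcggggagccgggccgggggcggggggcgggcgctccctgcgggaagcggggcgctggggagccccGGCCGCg

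This window held 1 hexamer. At least 1 was found in 8 of the 10 windows listed for 5 of the outer genes, some of which overlap, and in 26.8% of all 32851 windows. The windows of *Yy1* and of the first *Ppp2r5c* start held 5 each, and these genes were not called. A match describes the letters and not binding.

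*Rtl1*, a gene derived from a retrotransposon that is needed in the placenta, was at the limit of detection. It was counted 3 and 5 times in the WT and 0 and 0 times in the *Zfp57*-/- libraries, where 3 counts would be 0.322 and 0.307 CPM. It did not pass the filter on low counts, no fold change is given, and a difference was not detectable at this depth. A single allelic read was seen, a paternal one in WT replicate 2.

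The strand opposite to *Rtl1* carries 6 miRNA hairpin genes of the non-coding unit, *Mir431*, *Mir433*, *Mir127*, *Mir434*, *Mir432* and *Mir136*. miRNAs are short RNAs that repress transcripts through their seed (bases 2 to 8). All 11 of their mature arms in the RefSeq miRNA table were complementary along their whole length to the 6358-base *Rtl1* transcript of GENCODE, for example miR-127-3p to bases 2642-2663. The arms of the 3 hairpin genes that were called in the bulk test are printed, with the seed in capitals. No seed was shared among the 11 arms.

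mmu-miR-127-5p: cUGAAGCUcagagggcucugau
mmu-miR-127-3p: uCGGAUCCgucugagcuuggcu
mmu-miR-433-5p: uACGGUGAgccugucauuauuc
mmu-miR-433-3p: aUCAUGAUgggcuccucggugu
mmu-miR-432: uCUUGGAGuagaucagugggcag

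Fragments over these hairpins, which are pieces of the long precursor and not mature miRNAs, were few in WT cells. Of the 4 hairpin genes that passed the count filter, 3 were called higher, against 13% of all genes tested. *Mir431*, with 0 and 0 counts in the WT and 2 and 2 in the *Zfp57*-/- libraries, and *Mir136*, with 2 counts in each of the 4 libraries, were below the filter. *Mir127* was counted 6 and 3 times in the WT and 45 and 23 times in the *Zfp57*-/- libraries, a log2 fold change of 2.82 ± 0.73 (edgeR adjusted p = 0.0183). The values of *Mir432* were 8 and 4 against 36 and 34 counts, with 2.44 ± 0.65 (edgeR adjusted p = 0.0211). Those of *Mir433* were 8 and 4 against 46 and 18 counts, with 2.32 ± 0.75 (edgeR adjusted p = 0.0456). *Mir434*, with 3 and 1 against 11 and 9 counts, gave 2.18 ± 0.98 (edgeR adjusted p = 0.126). Allelic reads over the hairpins were few. For *Mir127*, *Zfp57*-/- replicate 1 had 3 maternal and 8 paternal reads and *Zfp57*-/- replicate 2 had 2 maternal and 0 paternal reads. *Mir434* had 0 maternal and 4 paternal reads in replicate 1 and 1 maternal and 2 paternal reads in replicate 2 of the mutant. All 25 *Mir432* reads of both mutant libraries were maternal. The WT libraries had 0 allelic *Mir127* reads, 2 *Mir434* reads and 7 *Mir432* reads, and none of these was paternal.

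*Dio3* encodes the type 3 deiodinase, which inactivates thyroid hormone. It was counted 13 and 4 times in the WT and 21 and 32 times in the *Zfp57*-/- libraries, or 1.61 and 0.382 against 2.25 and 3.27 CPM. Both mutant libraries were above both WT libraries, and the WT libraries differed from each other by more than the nearest libraries of the 2 genotypes did. The log2 fold change was 1.51 ± 0.74 (SE, edgeR adjusted p = 0.157), so that a change was not shown. It was 2.79 (edgeR adjusted p = 0.00227) without WT replicate 1 and 0.77 (edgeR adjusted p = 0.316) without WT replicate 2. Only 3 *Dio3* reads carried an allele, 2 paternal in WT replicate 1 and 1 maternal in *Zfp57*-/- replicate 2, which leaves the origin of its RNA unresolved at this depth. *Dio3os*, the antisense gene beside *Dio3* that was added after its values were seen, had 4 and 4 counts in the WT and 8 and 2 counts in the *Zfp57*-/- libraries.

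Upstream of *Begain*, *Wars*, *Yy1*, *Wdr25* and *Slc25a29* were not called, except that *Wars* was called without the filter on low counts (edgeR adjusted p = 0.0322). *Wars*, the cytosolic tryptophanyl-tRNA synthetase, had 64.5 and 172 CPM in the WT and 160 and 204 CPM in the *Zfp57*-/- libraries. WT replicate 1 was low and the other WT library lay between both mutant libraries. The log2 fold change was 0.62 ± 0.37 (edgeR adjusted p = 0.246), and it was 0.05 (adjusted p = 0.782) without WT replicate 1 but 1.49 (adjusted p = 1.41e-22) without WT replicate 2, both in edgeR. The summed level of 6 endoderm markers moved with *Wars*, at 211 and 463 CPM in the WT and 427 and 584 CPM in the *Zfp57*-/- libraries. No marker was at 0 in a genotype and none of the 6 was called. *Afp* and *Apoa1* did not follow the sum, with 2.35 and 1.34 CPM and 3.10 and 0.095 CPM in WT replicates 1 and 2. *Actb*, which is not an endoderm marker, was also lowest in WT replicate 1. The part of endoderm cells in the *Wars* values was not tested.

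*Yy1*, a zinc finger transcription factor, had 142 and 138 CPM in the WT and 112 and 127 CPM in the *Zfp57*-/- libraries. The mutant libraries were lower, but the log2 fold change of -0.23 ± 0.19 was not called (edgeR adjusted p = 0.404), and its 95% interval ran from -0.64 to 0.19. *Wdr25*, which encodes a WD repeat protein, had 7.43 and 7.26 CPM against 5.15 and 7.87 CPM, with overlapping groups and a log2 fold change of -0.17 ± 0.36 (edgeR adjusted p = 0.763). *Slc25a29*, a mitochondrial carrier of basic amino acids, had 1.73 and 3.63 CPM against 1.61 and 1.64 CPM. Its log2 fold change was -0.73 ± 0.60 (edgeR adjusted p = 0.397), and 1 WT library was close to both mutant libraries. It was -1.18 (edgeR adjusted p = 0.0686) without WT replicate 1 and -0.10 (edgeR adjusted p = 0.925) without WT replicate 2.

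Beyond *Dio3*, *Ppp2r5c* was not called. It encodes a regulatory B56 subunit of protein phosphatase 2A (PP2A), and its level was 140 and 179 CPM in the WT and 160 and 166 CPM in the *Zfp57*-/- libraries. Both mutant libraries lay between the WT libraries. The log2 fold change was 0.03 ± 0.20 (edgeR adjusted p = 0.923), with a 95% interval of -0.41 to 0.48.

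Per kb of exon length, the outer genes fell into a high and a low group in WT cells. The mean level was 34.4 CPM per kb for *Wars*, 21.8 for *Yy1* and 19.2 for *Ppp2r5c*, all in CPM per kb. The 2 *Wars* values, 18.7 and 49.99 CPM per kb, enclosed those of *Yy1*, 22.1 and 21.5, so the order of these 3 genes was not resolved. The means of the low group, again in CPM per kb, were 2.28 for *Begain*, 1.53 for *Wdr25*, 1.03 for *Slc25a29*, 0.491 for *Dio3* and 0.0668 for *Rtl1*. The ranges of *Slc25a29* and *Dio3* overlapped, and *Rtl1* was below every other outer gene in both WT libraries. In the mutant, *Begain* stood at 0.203 CPM per kb, below *Dio3* at 1.36 CPM per kb.

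**Figure D2:**
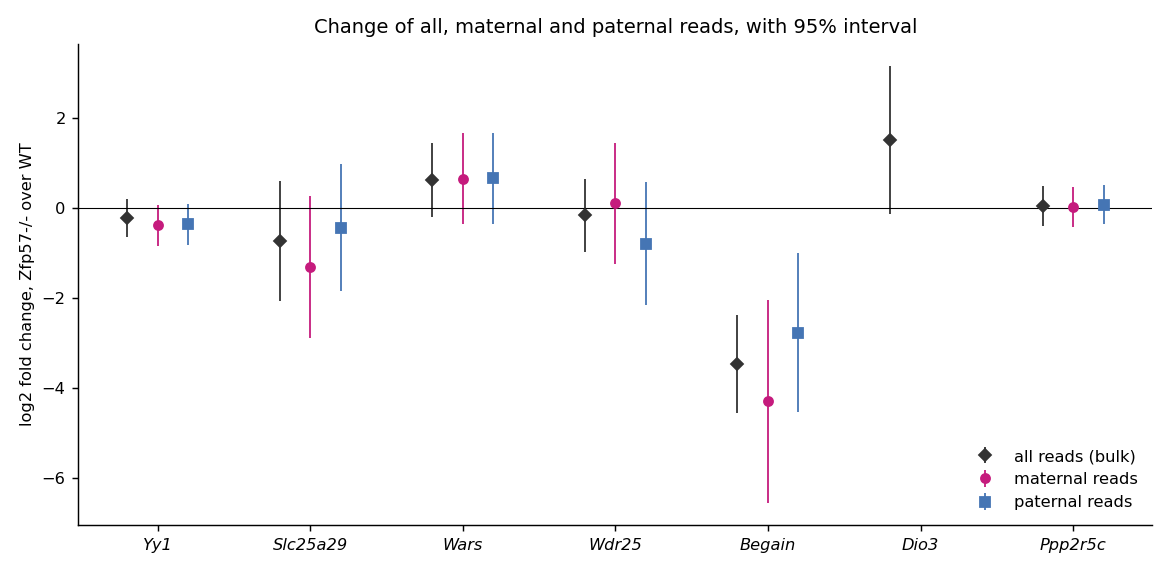
Log2 fold change between *Zfp57*-/- and WT cells of all reads and of the maternal and paternal reads of the outer genes, with 95% intervals (*Rtl1* was not tested, and *Dio3* had too few allelic reads). The 3 intervals of *Begain* lie below 0 and all others include 0.

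The allelic ratio, maternal reads divided by maternal plus paternal reads, answers whether an outer gene shared the change of parental origin in the middle of the domain. A ratio of 0.33 or less was taken as paternal and 0.67 or more as maternal expression. JF1 is always the mother here, so that parental origin and strain cannot be told apart for a small bias. Of the 8 genes, 6 had enough allelic reads for the test, and a change of allelic balance between the genotypes was called for 0 of the 6, by edgeR and by DESeq2, also with 0 at an unadjusted p under 0.05 in both. *Begain* is among the 6 only through its WT reads. Of all 10975 genes tested 14.5% were called in this contrast, and of the 394 on chromosome 12 15%.

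The 3 genes with many allelic reads gave narrow limits. The ratio of *Yy1* was 0.444 and 0.527 in the WT and 0.494 and 0.465 in the *Zfp57*-/- libraries. That of *Wars* was 0.450 and 0.447 against 0.472 and 0.427, and that of *Ppp2r5c* 0.442 and 0.480 against 0.448 and 0.463. All 12 values were close to equal expression of the alleles. The contrast, the log2 of maternal over paternal reads in *Zfp57*-/- minus that in WT cells, was -0.04 with a 95% interval of -0.41 to 0.32 for *Yy1*. It was -0.00038 (-0.26 to 0.26) for *Wars* and -0.05 (-0.30 to 0.20) for *Ppp2r5c*, with edgeR adjusted p-values of 0.951, 1.00 and 0.902 for the 3 genes in this order.

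A small excess of paternal reads was called in both genotypes for *Wars*. Its allele term was -0.30 ± 0.09 on the log2 scale in WT (edgeR adjusted p = 0.00679) and -0.30 ± 0.08 in *Zfp57*-/- cells (edgeR adjusted p = 0.00194). The term of *Ppp2r5c* was -0.21 ± 0.09 (edgeR adjusted p = 0.0798) in WT and -0.26 ± 0.09 (edgeR adjusted p = 0.0229) in *Zfp57*-/- cells, and the contrast between the genotypes was not called. Paternal reads were called higher in 9.26% of all genes tested in WT and in 12.5% in *Zfp57*-/- cells. DESeq2 called neither gene in either genotype, the WT call of *Wars* was lost without WT replicate 2 and its mutant call without *Zfp57*-/- replicate 2, and the mutant call of *Ppp2r5c* was lost without either mutant library. The mean ratios, 0.449 and 0.450 for *Wars* and 0.461 and 0.455 for *Ppp2r5c*, lay within the limits of biallelic expression. An allele term past the test together with a ratio outside these limits was found for 0 of the 6 outer genes tested in either genotype, by edgeR and by DESeq2, against 11.8% of all genes in WT and 7.81% in *Zfp57*-/- cells. At an unadjusted p under 0.05 in edgeR, the allele terms of 2 genes, *Wars* and *Ppp2r5c*, passed in each genotype, with ratios inside the limits. The median ratio of the 352 other chromosome 12 genes with enough reads was 0.507 in WT and 0.492 in *Zfp57*-/- cells.

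The other ratios rest on few reads. *Wdr25* had maternal ratios of 0.304 and 0.548 in the WT and 0.750 and 0.5 in the *Zfp57*-/- libraries, over 16 to 31 reads each, and its contrast of 0.93 had a 95% interval of -0.62 to 2.47. The contrast was 0.32 without WT replicate 1, 1.79 without WT replicate 2, 0.34 without *Zfp57*-/- replicate 1 and 1.89 without *Zfp57*-/- replicate 2, and was not called in any of these fits. *Slc25a29* had 0.636 and 0.419 against 0.308 and 0.364 over 11 to 31 reads each, with a contrast of -0.90 (-2.80 to 1.00), which was -0.51 without WT replicate 1 and -1.76 without WT replicate 2. Its mean ratio in the mutant, 0.336, was just inside the limit of 0.33. *Begain* had 0.536 and 0.348 in the WT libraries, and its contrast of -1.45 (-4.61 to 1.70) left a large change of balance in either direction possible. For these 3 genes a shift was not detectable at this depth, which does not show equal ratios.

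**Figure D3:**
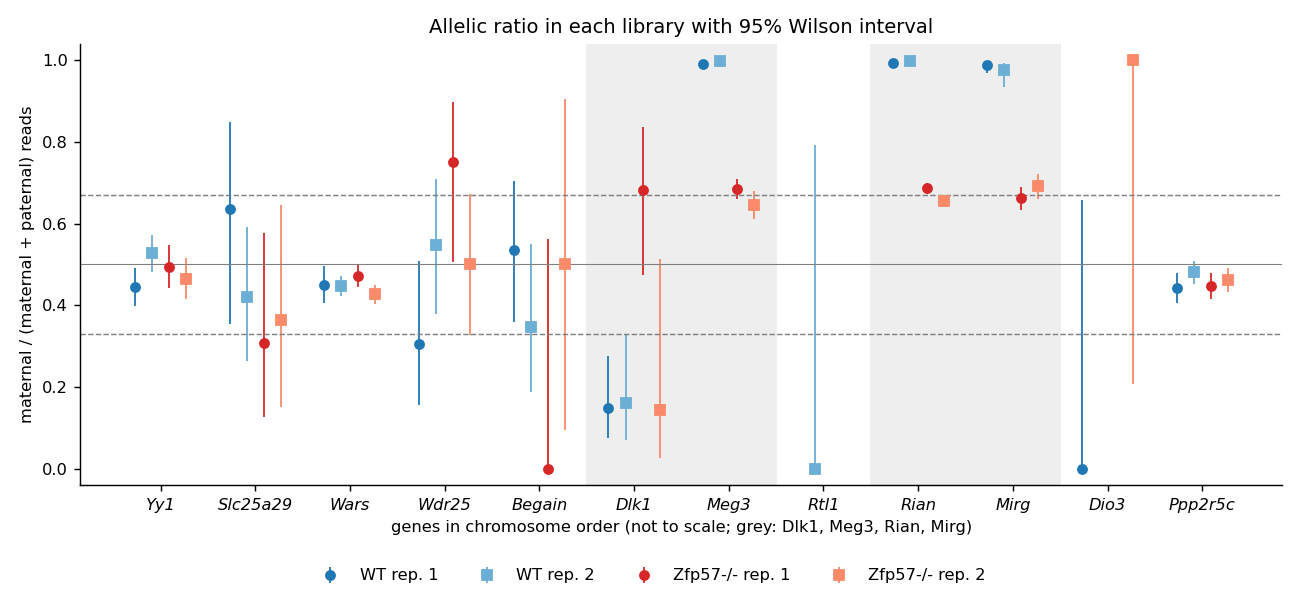
Allelic ratio (maternal over maternal plus paternal reads) of each gene in each library, in chromosome order, with 95% Wilson intervals and dashed lines at 0.33 and 0.67. *Yy1*, *Wars* and *Ppp2r5c* sit near 0.5 in all 4 libraries, whereas *Meg3*, *Rian* and *Mirg* lie near 1 in WT and near 0.67 in *Zfp57*-/- cells.

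The genes between the outer ones serve as the reference. The mean ratio of *Meg3* was 0.995 ± 0.005 (SD, n = 2) in WT and 0.666 ± 0.027 (SD, n = 2) in *Zfp57*-/- cells, and *Rian* and *Mirg* had the same order. A maternal excess remained in the mutant, where the means of *Rian* and *Mirg*, 0.671 and 0.677, were just past the limit of 0.67. Within *Zfp57*-/- cells, maternal reads were called higher for *Meg3*, *Rian* and *Mirg* (edgeR adjusted p of 7.14e-16, 5.11e-24 and 6.29e-16). Their contrasts were -6.34 (95% interval -6.88 to -5.80) for *Meg3*, -6.53 for *Rian* and -4.96 for *Mirg*. The intervals of *Yy1*, *Wars*, *Wdr25*, *Slc25a29*, *Begain* and *Ppp2r5c* did not reach those of *Meg3* and *Rian*, but that of *Begain* overlapped the interval of *Mirg*, -5.66 to -4.26. *Dlk1*, nearest to *Begain*, had a contrast of 2.62 (0.89 to 4.36, edgeR adjusted p = 0.0267). Its mutant libraries differed, with 15 maternal and 7 paternal reads in replicate 1 but 1 maternal and 6 paternal reads in replicate 2. The *Dlk1* interval overlapped those of *Wdr25*, *Slc25a29* and *Begain* in its lower part only. Their upper limits, 2.47, 1.00 and 1.70, were below the fitted *Dlk1* value of 2.62. A smaller change within the lower part of the *Dlk1* interval is not excluded for these 3 genes. The *Dlk1* interval did not overlap those of *Yy1*, *Wars* and *Ppp2r5c*.

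**Figure D4:**
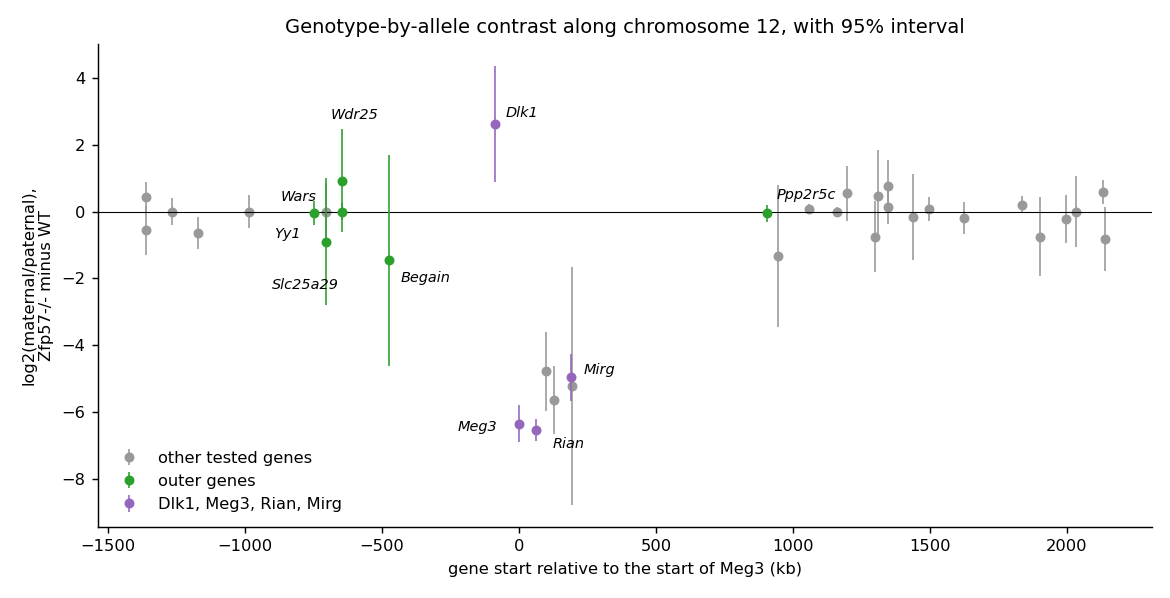
Genotype-by-allele contrast (log2 of maternal over paternal reads, *Zfp57*-/- minus WT) with 95% intervals against the distance of the gene start from the start of *Meg3* in kb. The contrasts of *Meg3*, *Rian*, *Mirg* and the transcripts between *Rian* and the end of *Mirg* lie below -4, and the intervals of the outer genes include 0.

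Other genes around the domain were counted in the same way. Within 1000 kb outside the interval from *Dlk1* to *Dio3* there were 52 further genes, of which 25 were tested in bulk and 15 in the allelic contrast. By edgeR, 0 of the 15 were called in the contrast, with 1 at an unadjusted p under 0.05. Of these genes 14 had 10 or more allelic reads in each library, and their median ratio was 0.490 in WT and 0.503 in *Zfp57*-/- cells. The gene with the smallest p before *Dlk1* was *Eml1*, whose ratios were 0.455 and 0.472 in the WT and 0.337 and 0.372 in the *Zfp57*-/- libraries, with a contrast of -0.63 ± 0.24 (edgeR adjusted p = 0.0676). The next was *Gm34220*, with 0.09 ± 1.21 (edgeR adjusted p = 0.992). After *Dio3* these were *Cinp*, with a contrast of 0.76 ± 0.38 (edgeR adjusted p = 0.231), and *Mok*, with -0.75 ± 0.53 (edgeR adjusted p = 0.469). In the bulk test 7 of the 25 were called, 4 higher and 3 lower, against 27.6% of all genes. Before *Dlk1*, 2 of the 6 tested were lower and 0 higher, with a median log2 fold change of -0.97. After *Dio3*, 1 of the 19 tested was lower and 4 were higher, with a median of 0.32. Of all genes tested, 14.6% were called lower and 13% higher. Within 2000 kb, 6 of 12 before *Dlk1* were lower and 0 higher, and 5 of 39 after *Dio3* were lower and 4 higher. Within the domain, 3 further transcripts, named after their values were seen, were called in the contrast, *Gm26945* with -4.77, *Gm37899* with -5.64 and *Mir453* with -5.21, and all 3 start between the start of *Rian* and the end of *Mirg*.

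Lists of related genes were read for all outer genes but *Wdr25*. Beside the counts below, 13% of all genes tested were called higher and 14.6% lower in the fit of all 4 libraries. Without either WT library, more genes of each of the 7 lists were called. The share of all genes called in such fits was not counted. *Begain* was among 13 postsynaptic scaffold genes, of which 10 fell, 0 rose and 3 were not called. The 9 neural markers moved with this list, 7 of them lower and their sum going from 1836 and 2138 to 371 and 358 CPM, and their part in it was not tested. The median log2 fold change of this list was -1.26, against -0.01 over all genes. *Dlg4*, which encodes the scaffold PSD-95, had 62.2 and 51.1 CPM in the WT and 14.9 and 16.9 CPM in the *Zfp57*-/- libraries, a log2 fold change of -1.83 ± 0.22 (edgeR adjusted p = 0.000245). *Begain* itself was the second gene named by the rule, and *Dlg2*, at -4.22, had a lower fitted value in this list. Fewer genes of the list were called without either *Zfp57*-/- library.

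The thyroid hormone genes around *Dio3* were mixed. Of 9 tested, 1 rose, 3 fell and 5 were not called, with a median log2 fold change of -0.72. *Thra*, a thyroid hormone receptor, fell from 58.6 and 63.9 to 16.4 and 15.5 CPM (-1.94 ± 0.20, edgeR adjusted p = 0.000120). *Hr*, a corepressor that binds the thyroid hormone receptor, rose from 1 and 7 to 47 and 45 counts (3.48 ± 0.71, edgeR adjusted p = 0.00550). As in the other lists, more of these genes were called without either WT library. The other deiodinase genes, *Dio1* and *Dio2*, had too few counts to be tested.

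Of the 17 cytosolic aminoacyl-tRNA synthetase genes, 1 rose and 16, *Wars* among them, were not called, with a median log2 fold change of 0.41. The gene that rose was *Farsb*, a subunit of the phenylalanyl-tRNA synthetase, from 64.4 and 85.2 to 193 and 163 CPM (1.25 ± 0.21, edgeR adjusted p = 0.00211). The number called was larger without either WT library, as in the other lists. Of 12 PP2A subunit genes, 3 rose and 2 fell, with a median of 0.06. *Ppp2r2c* (1.53 ± 0.28) and *Ppp2r5a* (0.82 ± 0.19) rose and *Ppp2r3a* (-1.35 ± 0.22) and *Ppp2r5e* (-0.94 ± 0.19) fell, of which *Ppp2r5a* and *Ppp2r5e* encode B56 subunits like *Ppp2r5c*. The number of PP2A genes called was larger without either WT library and smaller without either *Zfp57*-/- library.

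*Yy1* was not called in its list of 13 tested INO80 and YY1 partner genes, of which 5 rose and 0 fell (median 0.38). The first by adjusted p was *Zfp42*, with 0.743 and 3.15 CPM in the WT and 35.1 and 30.5 CPM in the *Zfp57*-/- libraries, which is a relative of *Yy1* and also one of the 7 pluripotency markers. *Uchl5*, an INO80-associated deubiquitinase, rose by 1.35 ± 0.22 on the log2 scale (edgeR adjusted p = 0.00169). Of the 8 mitochondrial carrier genes listed with *Slc25a29*, *Slc25a13* rose (1.56 ± 0.20) and *Slc25a12* fell (-0.70 ± 0.23, edgeR adjusted p = 0.0487), both being aspartate-glutamate carriers, and the median was 0.26. More of these carrier genes were called without either WT library, and fewer without either *Zfp57*-/- library. Of 9 tested genes derived from retrotransposon Gag sequences, the family of *Rtl1*, 1 rose and 3 fell (median -1.36). *Peg10*, an imprinted gene, rose (0.90 ± 0.24), and *Rtl5* (-2.35 ± 0.26) and *Rtl8a* (-1.63 ± 0.40) fell. Fewer genes of this list were called without either *Zfp57*-/- library.

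**Figure D5:**
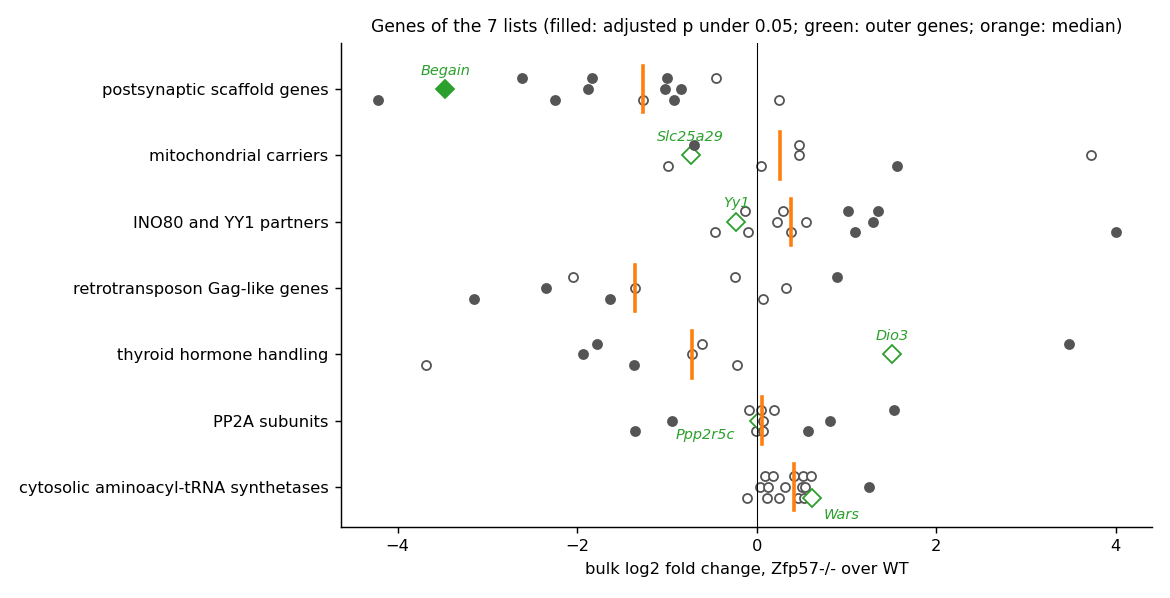
Bulk log2 fold change of the tested genes of the 7 lists, with the outer genes as green diamonds, other genes as circles, filled where the adjusted p was under 0.05, and the median of each list as an orange bar. *Begain* lies among falling postsynaptic genes, whereas *Dio3* is above 0 in a list whose median is -0.72.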

How the data were processed

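RNA-seq of 2 WT and 2 *Zfp57*-/- replicates was analysed. The authors deposited raw counts per gene of GENCODE vM20, made by Trimmomatic 0.36, STAR 2.5.4a on GRCm38 with unique alignments, and featureCounts of Subread 1.6.0 on the reverse strand. The deposited allelic counts come from reads aligned to a genome masked at strain SNPs and split into JF1 and B6. Genes with few SNPs have few allelic reads, whatever their level.

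The 8 genes and the lists were chosen with earlier results of these data known. Symbols were matched for 96.9% of gene identifiers, and list genes without a match were not analysed here. R 4.3.3 with edgeR 4.0.16 (robust quasi-likelihood test, TMM) was used for genes with more than 8 bulk counts, and adjusted p was taken over all genes. Allelic counts were tested for autosomal genes with at least 10 normalized counts in both WT replicates, in a model with library terms and 1 allele term for each genotype. A second fit compared each allele between the genotypes. DESeq2 1.42.0 was an alternative. Fits were tested on simulated data. Wilson intervals cover counting error only.

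All 8 genes are named, with the 2 list genes of smallest adjusted p in each direction, the 2 neighbours of smallest p on each side, and *Dlk1*, *Meg3*, *Rian*, *Mirg* and *Zfp57* as references. A gene that this rule selects is not reported here. miRNA genes, *Dio3os*, *Actb*, *Dlg2*, *Ckb*, *Dio1* and *Dio2* were added after their values were seen. Figures used Python 3.11.15 with matplotlib 3.10.9.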

Additional observations from a re-analysis of the deposited data

Results flagged for a closer look

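The balance of maternal and paternal reads differed between the genotypes, by the test of the difference itself, at 4 reference genes and at 0 of the 6 outer genes tested. Of all 10975 genes tested, 14.5% were called, and with only 6 outer genes a count of 0 is near that share. The log2 contrast was -6.34 for *Meg3*, -6.53 for *Rian*, -4.96 for *Mirg* and 2.62 for *Dlk1*. The *Dlk1* call was not made by DESeq2. With 2 libraries per genotype, single libraries could not be tested as outliers.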

How the results depend on the processing

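*Begain* kept its direction and its call in bulk under all alternatives run, and 0 of the outer genes was called in the allelic contrast under any of them. The replicate numbers do not pair the cultures in the labels, and the correlation of deviations between libraries with the same number was 0.151 (11880 genes). With a replicate block, 2 outer genes were called in bulk (*Begain* and *Wars*, the latter at 0.77 with an edgeR adjusted p of 0.00238), 2 in the maternal and 2 in the paternal reads (both times *Begain* and *Wars*), 0 in the contrast, and 7 aminoacyl-tRNA synthetase genes. Without the filter on low counts 2 outer genes were called in bulk, *Begain* and *Wars* (edgeR adjusted p = 0.0322). DESeq2 called 2 synthetase genes and 1 carrier gene. In a window of 2000 kb, 1 neighbour was called in the contrast, *Ckb* (0.58). With *Actb* as the scale, the median of all genes moved to -0.68 and *Ppp2r5c* to -0.60. The contrast of *Wars* was 0.0030 with DESeq2.

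Without 1 library at a time, the outer genes called were 1 to 2 in bulk, 0 to 2 in maternal and 0 to 3 in paternal reads, and the neighbours called in the contrast 0 to 1. The genes called were 1 to 12 for synthetases, 2 to 9 for PP2A, 3 to 7 for thyroid hormone genes, 1 to 5 for Gag-like genes, 1 to 5 for carriers and 4 to 12 for scaffold genes. Values of genes that were not called changed sign. The bulk log2 fold change ranged from -0.50 to 0.11 for *Wdr25* and from -0.16 to 0.22 for *Ppp2r5c*. The contrast ranged from -0.28 to 0.20 for *Yy1*, -0.13 to 0.14 for *Wars*, -4.36 to 0.29 for *Begain* and -0.15 to 0.077 for *Ppp2r5c*. The maternal change ranged from -0.28 to 0.64 for *Wdr25* and -0.22 to 0.27 for *Ppp2r5c*, and the paternal change from -1.05 to 0.74 for *Slc25a29* and -0.071 to 0.19 for *Ppp2r5c*. Such fits leave 1 library in a genotype, which is assumed to vary like the other genotype. The cause of these shifts was not tested. With few allelic reads, the allelic ratios of *Rtl1* and *Dio3* in both genotypes and of *Begain* in the mutant were not resolved.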
